A study of Mus musculus with 4 samples.

Results

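The genes described are 10 regulators and targets of the ATF4 stress response, chosen by symbol: Atf4, Atf5, Cebpg, Ddit3, Trib3, Nupr1, Asns, Chac1, Ddit4 and Sesn2. All 10 were found among the 23238 gene symbols of the count tables, and all 10 were among the 11464 genes with enough counts to be tested. They were measured in CD4+ T cells of C57BL/6j mice with the PDK4 KO genotype (2 libraries) and in the same cells of wild-type mice (WT, 2 libraries). In both genotypes, naive cells from spleen and lymph nodes had been stimulated in culture for 48 hours through CD3 and CD28 with IL-2. Sequencing was from the 3' ends of polyadenylated transcripts (Lexogen QuantSeq), so that a count reflects transcript number rather than length. The labels give neither the part of Pdk4 that was deleted nor the number of mice behind each library, and a p-value here therefore sets genotypes against a library-to-library spread that may be technical only.

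ATF4 is a basic leucine zipper transcription factor whose protein level is set mainly by translation. Kinases that sense amino acid shortage, endoplasmic reticulum stress, heme shortage or double-stranded RNA phosphorylate the initiation factor eIF2, which lowers general protein synthesis but lets ribosomes reach the ATF4 reading frame, and ATF4 then switches on genes of amino acid supply together with genes that end or turn the response. Activated T cells depend on amino acid uptake and synthesis for growth. The product of Pdk4, the gene deleted here, phosphorylates and thereby slows pyruvate dehydrogenase in mitochondria.

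The total count was 9739624 and 9104413 in KO replicates 1 and 2, and 8837810 and 9575879 in WT replicates 1 and 2. Pdk4 had 0 and 2 counts in KO libraries and 1 and 0 counts in WT libraries, under the floor of 3 counts in every library, so it does not check the labels. The defining markers of CD4 T cells were present, with Cd4 at 269 and 250 CPM (counts scaled to library size by TMM) in KO libraries and 251 and 254 CPM in WT libraries. Of 15 tested B cell markers, 12 fell in KO libraries (80.0%, against 2.66% of all tested genes called). The 18 listed markers summed to 117 and 132 CPM in KO libraries, against 240 and 275 CPM in WT libraries. Cd74 made up most of the KO sums and overlapped between genotypes (86.9 and 101 CPM in KO libraries, 85.8 and 119 CPM in WT libraries), so the sums understate the fall of the other markers. Cd22 had no count in either KO library, and Pax5 had none in any library. Cd22, Cd79a, Ms4a1, Ebf1, Blnk, Bank1, Spib and Fcer2a had enough counts to be tested only through their WT libraries. A gene kept in this way can hardly be called other than as a fall, so the share of 80.0% is partly set by the filter. Of 15 tested CD8 T and NK cell markers, 3 fell (Gzma, Fcer1g and Klrc1), 1 rose (Ccl5) and 11 did not pass. The 18 listed markers summed to 329 and 318 CPM in KO libraries and 490 and 509 CPM in WT libraries. Most of this gap was in Gzma alone (76.1 and 51.2 CPM in KO libraries, 219 and 219 CPM in WT libraries). Ccl5 went the other way, at 34.7 and 32.3 CPM in KO libraries and 15 and 14.4 CPM in WT libraries. The part of these other cells in the values below was not tested, and in bulk RNA fewer cells of a type cannot be told apart from less RNA per cell.

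Asns and Nupr1 had more mRNA in KO cells, by 1.43-fold and 1.48-fold, while the estimates for Atf4 itself, Atf5 and Ddit3 were 0.978-fold, 0.978-fold and 1.03-fold of WT and did not pass the test. In edgeR's quasi-likelihood test, with p-values adjusted over all tested genes by the Benjamini-Hochberg method and called below 0.05, 2 of the 10 genes rose, 0 fell and 8 did not pass, and DESeq2 and limma-voom gave the same counts. Over all tested genes 2.66% were called, 1.45% as rises and 1.21% as falls. The estimated log2 fold change was above 0 in 7 of the 10 and in 5738 of all 11464 tested genes. Its median was 0.15 over the 10, against 0.00 over all tested genes. Both KO libraries were above both WT libraries in 5 of the 10 (Asns, Nupr1, Trib3, Chac1 and Cebpg) and below them in 1 (Ddit4). Over all tested genes these shares were 21.5% and 21.9%. An unadjusted p under 0.05 was reached by the same 5 genes, all higher in KO libraries, against 13.5% of all tested genes in either direction and 6.80% in this one.

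**Figure D1:**
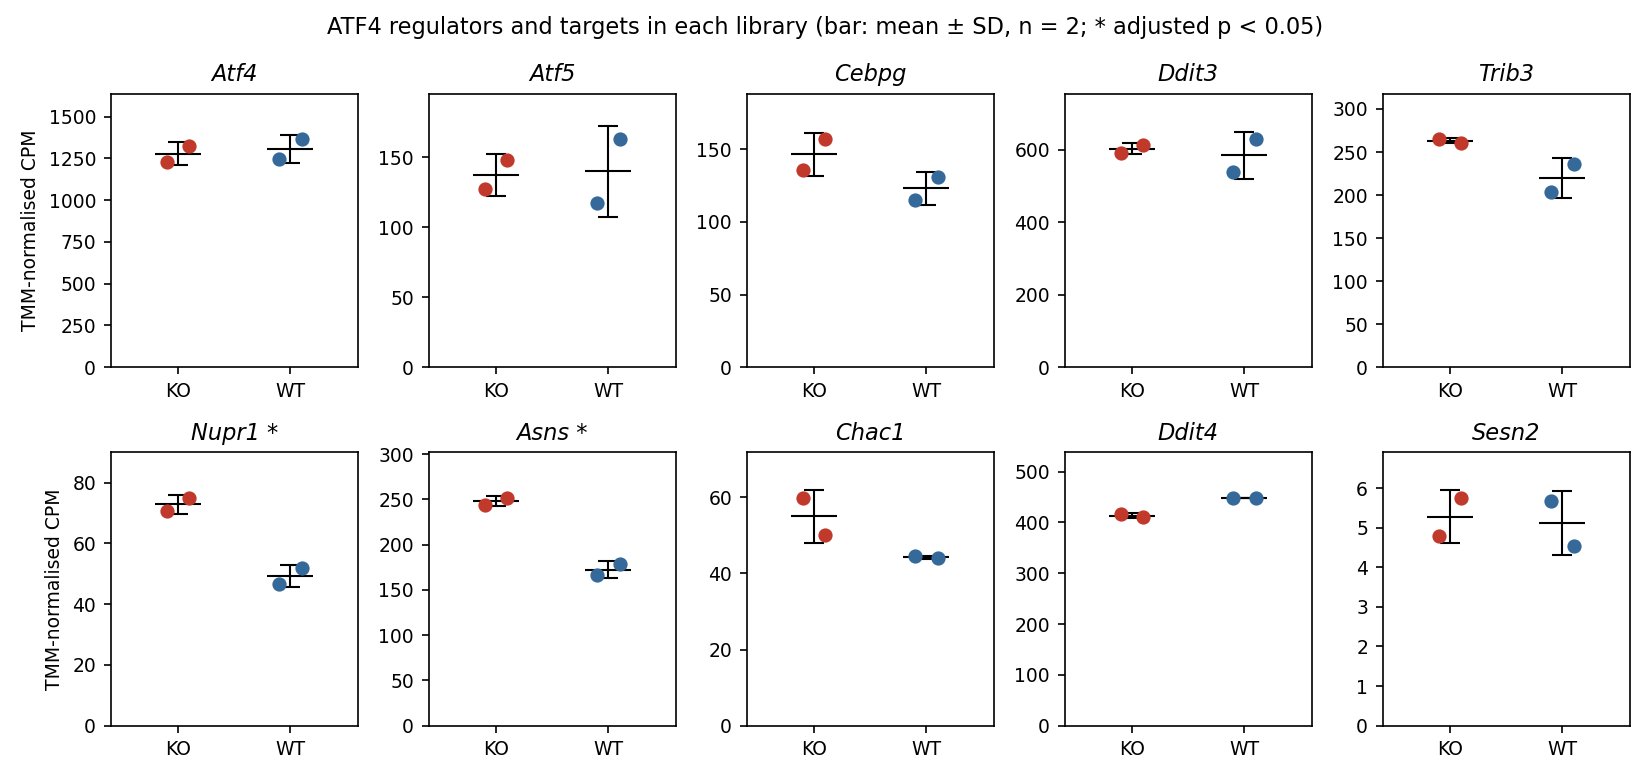
TMM-normalised CPM of each of the 10 genes (vertical axes, each starting at 0), with KO libraries in red on the left and WT libraries in blue on the right; points are single libraries and bars the mean ± SD of 2. Asns and Nupr1, marked with an asterisk, have both KO points well above both WT points, while the points of Atf4, Atf5, Ddit3 and Sesn2 overlap.

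Among the regulators, Atf4 (chromosome 15, 80255184 to 80257541, GRCm38) was the most abundant of the 10 and ranked 74 of the 11464 tested genes by mean CPM. It was at 1230 and 1326 CPM in KO libraries, against 1248 and 1366 CPM in WT libraries. The libraries of the genotypes overlapped, and replicate 2 was the higher in each genotype. The log2 fold change was -0.03 (SE 0.0625, adjusted p = 0.897), with a 95% interval of -0.16 to 0.10, which corresponds to between 10.5% less and 6.82% more mRNA in KO cells. These values concern the transcript and not the protein, which was not measured.

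Atf5, a related factor whose translation responds to the same eIF2 signal, had 127 and 148 CPM in KO libraries and 117 and 163 CPM in WT libraries. The WT libraries enclosed both KO libraries, and WT replicate 2 was 1.39 times WT replicate 1. The log2 fold change was -0.03 (95% interval -0.27 to 0.20, adjusted p = 0.953). In the annotation its exons overlap those of Nup62 on the opposite strand over 82 bases, and because it is not stated whether counting used strand, reads of these genes may have been mixed.

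Cebpg, a leucine zipper protein that forms dimers with ATF4 on DNA, had 136 and 157 CPM in KO libraries and 115 and 131 CPM in WT libraries. The genotypes did not overlap, but the nearest KO and WT libraries differed by only 1.04-fold. Its log2 fold change of 0.25 (SE 0.102, 95% interval 0.04 to 0.46) did not pass the test (adjusted p = 0.248).

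Ddit3 encodes CHOP, a factor that ATF4 induces and that is linked to cell death after lasting stress. It had 592 and 614 CPM in KO libraries and 539 and 629 CPM in WT libraries, so that the KO values lay between the WT values. The log2 fold change was 0.05 (95% interval -0.10 to 0.19, adjusted p = 0.866). Its exons overlap those of Mars, the methionyl-tRNA synthetase gene on the opposite strand, over 68 bases, which makes its count uncertain in the same way as that of Atf5.

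Trib3 and Nupr1 act on the response from within: TRIB3 is a pseudokinase that binds ATF4 and CHOP and restrains them, and NUPR1 is a small stress-induced chromatin-associated protein. Trib3 had 265 and 261 CPM in KO libraries, against 203 and 236 CPM in WT libraries. All 4 ratios of a KO to a WT library lay between 1.11 and 1.30, yet the log2 fold change of 0.26 (SE 0.0859, 95% interval 0.08 to 0.43) did not pass after adjustment (adjusted p = 0.117). Nupr1 (chromosome 7, 126623249 to 126630861) had 70.7 and 75.1 CPM in KO libraries, against 46.6 and 51.9 CPM in WT libraries. Its KO libraries were 1.36 to 1.61 times the WT libraries, and it rose by a log2 fold change of 0.56 (SE 0.131, 95% interval 0.30 to 0.83, adjusted p = 0.00974). The call of Nupr1 rested on single libraries, since without KO replicate 2 the log2 fold change was 0.52 (adjusted p = 0.105) and without WT replicate 1 it was 0.49 (adjusted p = 0.106). Trib3 also depended on the WT libraries, with a log2 fold change of 0.16 (adjusted p = 0.581) without WT replicate 1 and of 0.37 (adjusted p = 0.0499) without WT replicate 2.

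Among the effector targets, Asns encodes asparagine synthetase, which makes asparagine from aspartate and glutamine and is a standard readout of ATF4 activity. It had 2386 and 2317 raw counts in KO libraries, against 1465 and 1700 in WT libraries, or 244 and 252 CPM in KO libraries, against 166 and 179 CPM in WT libraries. Every KO library exceeded every WT library by 1.36-fold to 1.51-fold, and the gap between genotypes was larger than the gap within either. Asns averaged 248 ± 5.74 CPM in KO cells and 173 ± 9.22 CPM in WT cells (SD, n = 2 each) and rose by a log2 fold change of 0.52 (SE 0.0862, 95% interval 0.34 to 0.69, adjusted p = 0.000189). It ranked 63 by p among the 11464 tested genes.

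Chac1 encodes an enzyme that degrades glutathione and is induced by ATF4 and CHOP. It had 59.9 and 50.0 CPM in KO libraries and 44.5 and 44.0 CPM in WT libraries. The KO libraries differed from each other by more than the lower of them differed from WT, and the log2 fold change of 0.31 (SE 0.143, 95% interval 0.02 to 0.60) did not pass (adjusted p = 0.321). Without KO replicate 1 it was 0.17.

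Ddit4 and Sesn2 both encode inhibitors of mTORC1, the kinase complex that couples amino acid supply to growth. Ddit4 (REDD1) was the gene of the 10 that stood lowest in KO relative to WT, with 417 and 410 CPM in KO libraries, against 449 and 448 CPM in WT libraries. Replicate 2 was 0.983 times replicate 1 in KO and 0.999 times in WT, and the log2 fold change of -0.12 (SE 0.0716, 95% interval -0.26 to 0.03) did not pass (adjusted p = 0.508). Sesn2, a leucine-binding sestrin, was the scarcest, with 47 and 53 raw counts in KO libraries and 50 and 43 in WT libraries. At this depth its log2 fold change of 0.05 had a 95% interval of -0.83 to 0.92 (adjusted p = 0.983), or between 43.6% less and 89.4% more mRNA in KO cells. Differences within these bounds are not excluded, and no detection limit was computed.

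**Figure D2:**
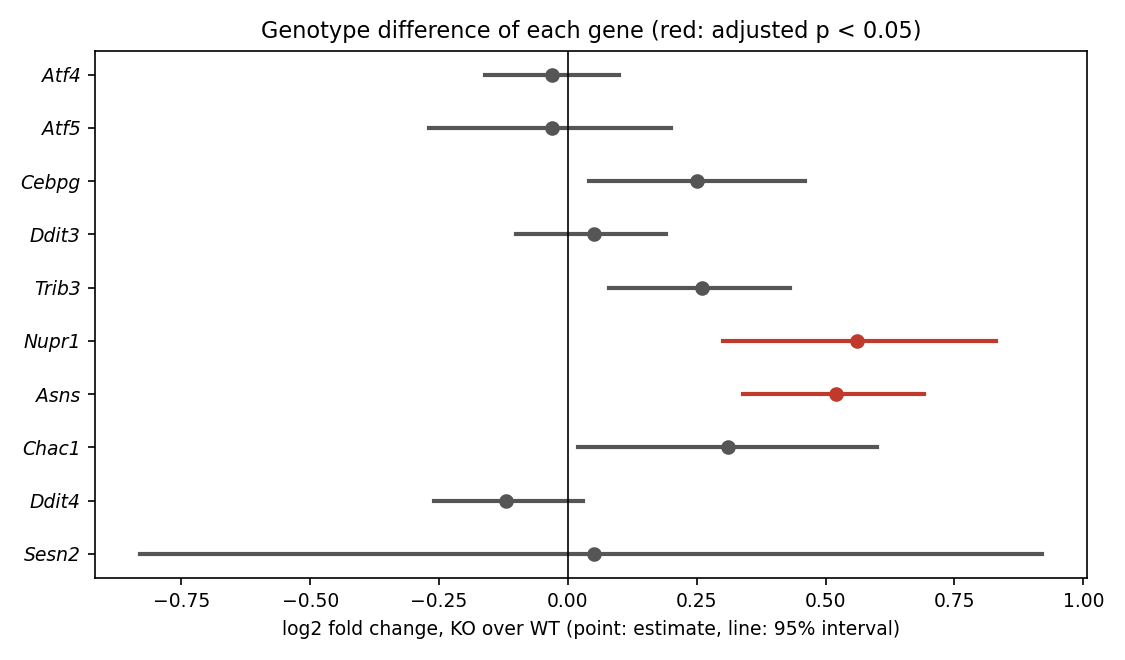
Log2 fold change of KO over WT for the 10 genes, with the regulators above and the effector targets below; points are estimates and lines 95% intervals from the quasi-likelihood fit, red for an adjusted p under 0.05. The intervals of Asns (0.34 to 0.69) and Nupr1 (0.30 to 0.83) lie to the right of 0. So do those of Trib3 (0.08 to 0.43), Cebpg (0.04 to 0.46) and Chac1 (0.02 to 0.60), which did not pass after adjustment. Those of Atf4, Atf5, Ddit3 and Ddit4 include 0, and that of Sesn2 spans -0.83 to 0.92.

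The genes were also expressed relative to Atf4 within the same library. There were 19.8 and 19.0 Asns counts for every 100 Atf4 counts in KO libraries, against 13.3 and 13.1 in WT libraries. For Nupr1 the values were 5.75 and 5.66 in KO libraries and 3.73 and 3.80 in WT libraries, and for Trib3 21.5 and 19.7 in KO libraries and 16.3 and 17.3 in WT libraries. For these 3 genes, and for Chac1 (4.87 and 3.77 in KO libraries, 3.57 and 3.22 in WT libraries) and Cebpg (11.1 and 11.9 in KO libraries, 9.23 and 9.60 in WT libraries), the genotypes did not overlap. They are the same genes whose KO libraries were above both WT libraries in CPM, and Atf4 itself was 0.978-fold of WT. The separation on this scale is therefore no further result, and its share over all tested genes was not computed. The WT libraries, which differed in the level of several of the 10 genes, were close to each other on this scale for Asns and Nupr1. For Ddit3 the values were 48.1 and 46.3 in KO libraries and 43.2 and 46.1 in WT libraries, so that the nearest libraries almost met.

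Promoter sequence was read for the 10 genes because ATF4 binds, with C/EBP proteins, to composite elements in several of these promoters, among them that of human ASNS. The letters TGATGNAA were searched on both strands of the RefSeq windows from 250 bases before to 50 after each start site (build GRCm38.p6), of which the 10 genes have 11, with 2 for Atf5. A match was found in 4 of the 11 windows (36.4%), against 3.97% of 32851 windows of all genes and 2.47% of 11114 windows of tested genes. The 10 genes were listed for their part in the ATF4 response, so this higher share is not a separate result. The matches were in Asns, Nupr1, Chac1 and Trib3. The stretches before the RefSeq start site are shown for the genes that rose and for Chac1, 5′ to 3′ on the strand of the gene, with the match in capitals; the Nupr1 and Chac1 matches read as the reverse complement, TTNCATCA.
Asns (chr6:7693210-7693258, minus strand): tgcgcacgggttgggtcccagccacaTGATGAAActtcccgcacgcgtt
Nupr1 (chr7:126625547-126625606, minus strand): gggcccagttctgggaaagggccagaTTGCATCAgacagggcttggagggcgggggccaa
Chac1 (chr2:119351023-119351082, plus strand): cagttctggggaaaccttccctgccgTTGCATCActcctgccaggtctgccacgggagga

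The match began 23 bases before the RefSeq start site in Asns, 110 before it in Nupr1 and 193 before it in Chac1, and that of Trib3, TTACATCA, began at base 15 of the transcribed part. The GENCODE gene bounds, which give the positions elsewhere in the text, start at other bases. Counted from them, the match began 22 bases inside the gene in Asns and 5281 inside it in Nupr1, and 180 bases before it in Chac1 and 14 before it in Trib3. These 4 genes had the highest log2 fold changes of the 10, at 0.56 for Nupr1, 0.52 for Asns, 0.31 for Chac1 and 0.26 for Trib3. However, Chac1 and Trib3 did not pass the test, and Cebpg, with no match in its window, stood at 0.25. Among the other tested genes, 254 had a match in a window, and 6 of them rose and 5 fell (4.33%), with a median log2 fold change of 0.01. Of 8477 tested genes with a window and no match, 105 rose and 100 fell (2.42%), with a median of 0.00. Tested genes without a RefSeq window were not searched and are in neither count. A match of these letters is a description of the sequence and not a measured binding site.

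Beyond the 10, 85 tested genes of ATF4 signalling and output, listed from general knowledge, held 2 rises and 0 falls (2.35%), a share close to the 2.66% called over all genes. Both rises were amino acid transporters, in a list of 12 whose median log2 fold change was 0.18 and in which 10 were above 0. Of all 11464 tested genes, 5738 were above 0. Slc7a1, a carrier of arginine and lysine, was at 367 and 327 CPM in KO libraries, against 298 and 260 CPM in WT libraries (log2 fold change 0.32, SE 0.0828, adjusted p = 0.0274). Slc6a9, a glycine carrier, was at 108 and 98.7 CPM in KO libraries, against 76.1 and 79.8 CPM in WT libraries (0.41, SE 0.113, adjusted p = 0.0420). The genotypes did not overlap for either, but both calls were lost without KO replicate 1 (adjusted p = 0.439 and 0.366) and without WT replicate 2 (0.362 and 0.131). That of Slc6a9 was also lost without KO replicate 2 (0.0789) or WT replicate 1 (0.180), with DESeq2 (0.0739) and with the replicate number as a block (0.0727), and both were lost with upper quartile scaling (0.0668 and 0.0691).

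The other lists of this pathway were grouped because none held a call in edgeR, so that their lack of edgeR calls is no separate result. Of their 74 tested genes, 0 passed in DESeq2 or limma-voom. At an unadjusted p under 0.05 in edgeR, 9 of the 74 were higher and 3 lower in KO libraries. Of all 11464 tested genes, 779 (6.80%) were higher and 766 lower at this threshold. Of 14 genes of amino acid synthesis, 12 were above 0, against 5738 of all 11464 tested genes, and their median was 0.12. Shmt2, a mitochondrial serine hydroxymethyltransferase, was at 404 and 373 CPM in KO libraries and 347 and 337 CPM in WT libraries (adjusted p = 0.246), and Gpt2, an alanine aminotransferase, had a log2 fold change of 0.34 (adjusted p = 0.310). The 20 cytosolic tRNA synthetases lay on both sides of 0, with a median of -0.01, and their smallest p-values were those of Sars (-0.17, adjusted p = 0.210) and Iars (0.22, adjusted p = 0.293). Among 15 genes of eIF2 signalling (median 0.08), Eif2ak2, the double-stranded RNA sensor PKR, was at 13.7 and 21.5 CPM in KO libraries and 10.1 and 12.5 CPM in WT libraries (adjusted p = 0.257). Ppp1r15a, the phosphatase subunit that reverses eIF2 phosphorylation, stood at a log2 fold change of 0.26 (adjusted p = 0.313). Among 11 leucine zipper partners (median -0.02), Fosl2 was at -0.19 (adjusted p = 0.326) and Mafg at 0.13 (0.714). In the list of 17 other targets (median 0.08), Herpud1 was at 0.28 (adjusted p = 0.125) and Vldlr at 0.62 (0.256).

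**Figure D3:**
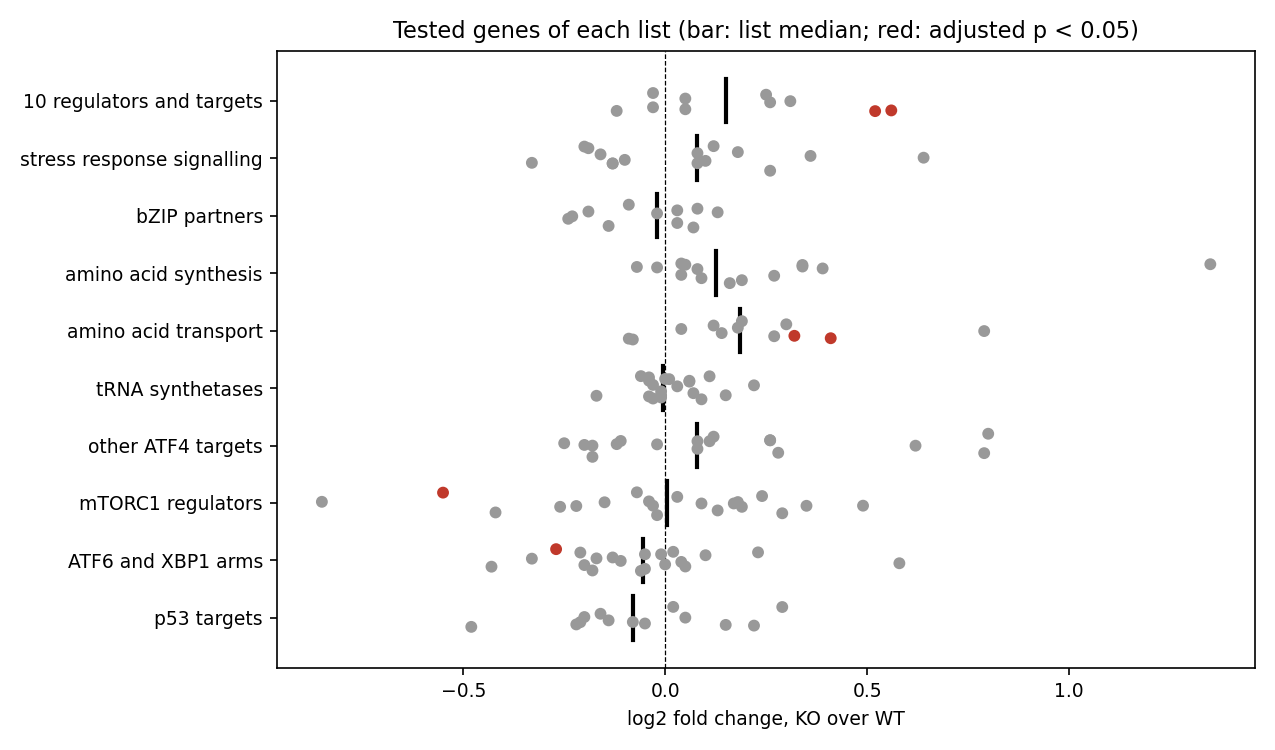
Log2 fold change of KO over WT (horizontal axis) for every tested gene of the 10 regulators and targets and of 9 further lists, which share some genes; bars are list medians and red points have an adjusted p under 0.05. The 10 genes have a median of 0.15 and the amino acid transporters 0.18, while tRNA synthetases centre on -0.01.

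Sesn2 and Ddit4 were set beside other regulators of mTORC1. Of 20 tested, 1 fell and 0 rose, with a median of 0.00. The gene that fell was Sesn3, another sestrin, at 122 and 112 CPM in KO libraries, against 179 and 163 CPM in WT libraries. Its log2 fold change was -0.55 (SE 0.097, adjusted p = 0.000502), and between -0.61 and -0.48 over the alternatives, all past the test. Mios, a subunit of the amino acid sensing complex GATOR2 that also lies near Asns on chromosome 6, was at 11.4 and 8.48 CPM in KO libraries and 17.5 and 18.5 CPM in WT libraries, without passing (-0.85, adjusted p = 0.0760), except when no filter on low counts was used (adjusted p = 0.0478).

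Asns lies on chromosome 6 (7675169 to 7693254), with its start 2192 kb from that of the deleted gene. Of 16 tested genes that start within 5 Mb of Pdk4, 2 rose (Asns and Samd9l) and 1 fell (Peg10), where 2.66% of all tested genes were called. Without Asns, the reason for looking at this window, 1 of 15 rose and 1 fell. Samd9l, an interferon-induced gene chosen here after its values were seen, starts 2111 kb to the other side of Pdk4 and had 82 and 122 counts in KO libraries, against 22 and 28 in WT libraries (log2 fold change 1.98, adjusted p = 0.00239, and 0.116 without KO replicate 2). Peg10, an imprinted gene, had 0 and 0 counts in KO libraries, against 12 and 11 in WT libraries, and had enough counts to be tested only through WT. It was at least 7.99-fold lower against a floor of 3 counts over both KO libraries together (adjusted p = 0.0472), and lost its call in 8 of 11 alternative settings. Within 1 Mb of Pdk4 the other tested genes were Col1a2 (adjusted p = 0.221), Casd1 (0.940), Pon3 (0.675), Pon2 (0.792) and Slc25a13 (0.529), the last at 195 and 205 counts in KO libraries and 99 and 198 in WT libraries. An effect of the chromosome around the deleted gene on Asns and an effect of the lost kinase cannot be told apart with these groups. Nupr1, the other gene that rose, is on chromosome 7.

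The genes whose pattern over the 4 libraries was most like that of Asns, by the root mean square difference of log2 CPM centred on each gene's mean, were Rnf185 (0.0204), Gm11201 (0.0231) and Daxx (0.0276), out of genes with at least 10 CPM. Daxx rose as well, with 135 and 139 CPM in KO libraries, against 96.2 and 102 CPM in WT libraries (adjusted p = 0.00518, and 0.0691 without KO replicate 2). Rnf185 and Gm11201 did not pass (adjusted p = 0.259 and 0.364). Those most like Atf4 were Galk1 (0.00713), Mpp6 (0.00994) and Upf2 (0.0100), with log2 fold changes of -0.02, -0.04 and -0.03 (adjusted p between 0.950 and 0.973).

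Asns passed the test under every alternative tried. Its log2 fold change lay between 0.47 and 0.57 over 13 alternatives, with adjusted p-values from 1.7e-06 to 0.00802. The wider range of Atf5, from -0.25 to 0.22, came from leaving out single libraries.

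**Figure D4:**
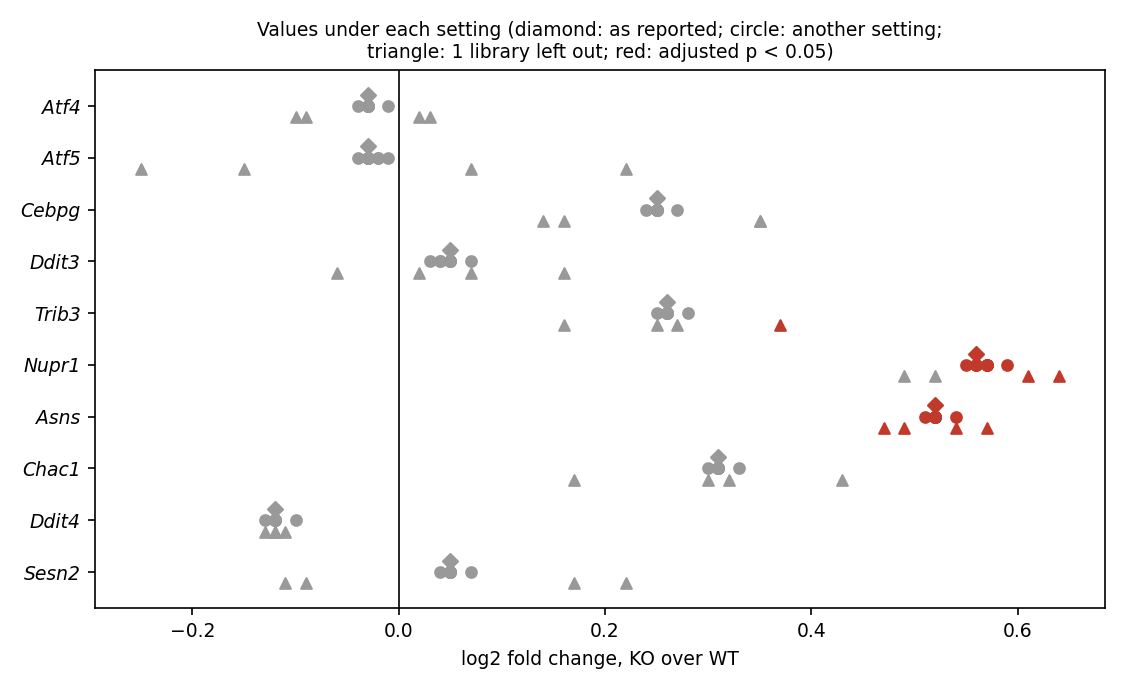
Log2 fold change of KO over WT for the 10 genes under the reported setting (diamonds), 9 other settings (circles) and with 1 of the 4 libraries left out (triangles); red marks an adjusted p under 0.05. All Asns symbols are red, 2 Nupr1 triangles are grey at 0.49 and 0.52, and 1 Trib3 triangle is red at 0.37.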

How the data were processed

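The authors deposited raw read counts per gene symbol, 1 table per library. The submitters' processing notes name Bowtie2, edgeR and mm10, without versions or roles. Per the labels' protocols, libraries were made from 500 ng of total RNA. No source used here states the counting tool, the annotation, strand use or how multiply mapping reads were treated. Counts of 35 repeated symbols were summed. The genotype test was edgeR 4.0.16 run in R 4.3.3 (filterByExpr, TMM, glmQLFit and glmQLFTest, two-sided, genotype as the only term), with p-values adjusted over all 11464 tested genes. The SE is the absolute log2 fold change over the square root of F, and intervals use the fit's degrees of freedom and are not adjusted for the number of genes. CPM are TMM-normalised; the floor of 3 counts was 0.308 to 0.339 CPM per library and covers counting error only. Replicates of a genotype differed beyond counting noise (chi-square per degree of freedom 5.45 in KO and 5.40 in WT). Rn45s took 11.6% to 12.3% of counts and was kept. DESeq2 1.42.0 and limma 3.58.1 gave alternatives, beside 3 other scalings, 2 other filters, omission of Rn45s, a replicate block and each library left out. Positions are from GENCODE vM21 (GRCm38, the assembly of mm10), matched by symbol, and promoters from RefSeq (GRCm38.p6). The 10 genes, the lists and the tests were chosen with earlier results of these data known. The named genes are the 10, up to 4 of each list by call and then p, the tested genes within 1 Mb of Pdk4, and the 3 most like Asns and Atf4.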

Additional observations from a re-analysis of the deposited data

How the results depend on the processing

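Of 130 values of the 10 genes over 13 alternatives, 120 kept their direction and their side of the threshold. The exceptions came from leaving out single libraries. They were the calls of Nupr1 and Trib3 given above and changes of sign among genes that did not pass, whose log2 fold changes over the 4 omissions ranged from -0.10 to 0.03 for Atf4, from -0.25 to 0.22 for Atf5, from -0.06 to 0.16 for Ddit3 and from -0.11 to 0.22 for Sesn2. The range was -0.04 to 0.18 for Casd1, -0.13 to 0.39 for Pon2, -0.08 to 0.04 for Galk1, -0.09 to 0.02 for Mpp6 and -0.09 to 0.04 for Upf2, and Galk1 was at 0.00 with library size only. Over the omissions, 170 to 293 genes were called in all (305 with every library, 184 without WT replicate 2), with 1 to 3 of the 10 genes, 0 to 1 of the 85 pathway genes and 1 to 2 of the 16 neighbours of Pdk4. Of the pathway genes, upper quartile scaling left 0 called, and DESeq2 and the replicate block left 1 each. The causes were not tested. Replicate numbers are shared between genotypes, and the labels do not say whether same-numbered libraries were paired. The deviations of same-numbered libraries had a correlation across genes of 0.007. That value took in all tested genes, those with low and noisy counts included, and so cannot decide the question. With the replicate block 2 of the 10 genes and 260 genes in all were called. Depth limits Sesn2 most.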

Other observations

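The other arms of the unfolded protein response, which ATF6 and XBP1 drive, had 1 fall and 0 rises among 20 tested genes. Of all tested genes, 2.66% were called. The median log2 fold change of the 20 was -0.05. Both KO libraries were below both WT libraries in 9 of the 20 and above them in 1, and 10 overlapped. Of all tested genes, 21.9% were below and 21.5% above in this way. The gene that fell was Hsp90b1, an endoplasmic reticulum chaperone, at 374 and 361 CPM in KO libraries, against 452 and 434 CPM in WT libraries (-0.27, adjusted p = 0.0360 in edgeR). Its adjusted p was 0.171 without KO replicate 1, 0.256 without KO replicate 2, 0.155 without WT replicate 1, 0.0648 without WT replicate 2 and 0.0668 with library size only. Pdia4, a disulfide isomerase, was at 86.9 and 77.5 CPM in KO libraries and 109 and 98.4 CPM in WT libraries (adjusted p = 0.128). The 13 tested p53 targets, some of which respond to CHOP as well, had a median of -0.08, with 0 called in edgeR, DESeq2 or limma-voom. At an unadjusted p under 0.05 in edgeR, 0 were higher and 2 lower in KO libraries, against 779 and 766 of all 11464 tested genes. Those lower were Bax at -0.48 (adjusted p = 0.214) and Trp53inp1 at -0.21 (0.273). Of 9 tested CD4 T cell markers, 1 rose and 0 fell in edgeR, DESeq2 and limma-voom alike (11.1% in edgeR, against 2.66% of all tested genes). At an unadjusted p under 0.05 in edgeR 1 was higher and 2 were lower in KO libraries, against 779 and 766 of all 11464 tested genes. Those lower were Cd3d, at 585 and 602 CPM in KO libraries and 642 and 683 CPM in WT libraries (-0.16, adjusted p = 0.273), and Cd3g, at 49.6 and 62.3 CPM in KO libraries and 68.3 and 67.3 CPM in WT libraries (-0.28, adjusted p = 0.359). The marker that rose was Cd5, at 322 and 350 CPM in KO libraries, against 283 and 266 CPM in WT libraries (adjusted p = 0.0341, and 0.0768 without KO replicate 1, 0.332 without KO replicate 2, 0.267 without WT replicate 2 and 0.0716 with upper quartile scaling).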
